A study of Mus musculus with 39 samples.

Results

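The effect of SW016789 on gene expression at 6 h was compared with its effect at 2 h in MIN6 cells, an insulin-producing line derived from a mouse insulinoma. The quantity tested in every gene was a difference of differences, SW016789 minus DMSO at 6 h less SW016789 minus DMSO at 2 h, so that a gene moving equally in both treatments between the times has a value of 0. It rests on 12 of the 39 libraries of the series, with 3 libraries each for DMSO at 2 h, DMSO at 6 h, SW016789 at 2 h and SW016789 at 6 h, and was tested in 21752 of 24421 gene symbols. SW016789, a small molecule that provokes excessive insulin secretion, was given at 5 μM, and the control cells received its solvent DMSO at 0.1%. Every well held the same line in a high-glucose culture medium, and additions were timed back from a common harvest, so the DMSO wells also differ in how long they carried solvent. Each of 3 independent experiments gave 1 library to each group, and the libraries of one experiment share a replicate number. The libraries of thapsigargin (100 nM), which blocks the calcium pump of the endoplasmic reticulum, from the same times served for comparison.

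A secretory cell that takes in calcium first switches on immediate-early genes, whose transcription needs no new protein and usually ends soon after the stimulus. When proteins to be folded exceed the capacity of the endoplasmic reticulum (ER), its sensors PERK, ATF6 and IRE1 start the unfolded protein response. PERK leads to translation of the transcription factor ATF4, which raises genes of amino acid supply and stress such as CHOP (Ddit3), while ATF6 and the IRE1 product XBP1 raise chaperones, disposal factors and the transport machinery of the ER.

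The 12 libraries held 15359239 to 47616080 counted read pairs. Of the high-quality reads, the percentage lying outside genes (intergenic) was 6.50% to 17.04% in DMSO at 2 h, 6.80% to 7.55% in DMSO at 6 h, 7.32% to 20.6% in SW016789 at 2 h and 6.17% to 26.5% in SW016789 at 6 h, with the highest value of each SW016789 group and of DMSO at 2 h in experiment 1. Its difference of differences was 2.10 percentage points (exact two-sided permutation test, p = 0.85, where 0.005 is the smallest p the 400 relabelings allow). Counts of calls without the libraries concerned are given with the results. The beta cell markers were present throughout, for example Ins2 at 7776 to 13359 counts per 1000000 counts (CPM, scaled by library composition), Iapp at 10354 to 15015 CPM and Nkx6-1 at 129.5 to 240.04 CPM. Of the markers of other cells, none was called in the change: 0 of 15 for other islet cells, 0 of 18 for acinar and ductal cells and 0 of 19 for stromal, endothelial and immune cells. Of all genes 1.32% were called, so lists this short would seldom hold a call, and these counts do not measure the amount of other cells. Their summed levels were 1724 to 2004 CPM, 80.7 to 121.7 CPM and 4.58 to 59.9 CPM over the 12 libraries. The acinar and ductal sum was 80.7 to 121.7 CPM in DMSO at 2 h and 92.5 to 97.1 CPM in SW016789 at 6 h. Most of it was the keratin gene Krt7, which averaged 98.7 CPM over the 12 libraries. The stromal sum reached 34.3 CPM in DMSO at 2 h and 59.9 CPM in SW016789 at 6 h. Of the 15 markers of other islet cells, 8 averaged 1 CPM or more, among them Gcg (293 CPM), Ttr (325 CPM), Etv1 (499 CPM) and Slc7a2 (664 CPM). Only 3 of the 18 and 5 of the 19 averaged 1 CPM or more, the pancreatic enzyme genes Cpb1, Ctrl, Cela2a and Cela3b stayed below 1 CPM in all 12 libraries, and the median changes of these lists (2.89 and 1.28) rest on these sparse counts. No marker was at 0 in all 12 libraries.

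The response to SW016789 shifted between the times in both directions. Of 43 immediate-early genes 12 lost all or much of an effect they had at 2 h. Of 26 chaperone genes of the ER 17 gained, as did 9 of 20 genes of tRNA charging and 5 of 15 of serine and one-carbon metabolism. Among all genes tested 0.519% were called lower and 0.8% higher. These counts were not equally stable. Without DMSO 6 h replicate 1, for example, they were 9, 4, 0 and 5 in the same order. In these bulk samples, fewer cells of a type and less RNA per cell cannot be told apart. The change was called, at an adjusted p below 0.05 in edgeR's quasi-likelihood test with Benjamini-Hochberg adjustment over all genes tested, in 287 genes (1.32% of those tested). The effect was higher at 6 h in 174 genes (0.8%) and lower in the remaining 39.4% of the calls (0.519% of genes tested), and all 287 averaged at least 1 CPM. The median size was 0.66 on the log2 scale among the 174 and 0.69 among the genes called lower, and it exceeded 1 in 22 and 26 genes. The median change over all genes tested was 0.09, and -0.01 over those averaging 1 CPM or more. With the experiment as a replicate block the count was 484, which held all 287, with 264 higher and 220 lower. It was 257 without libraries above 25% intergenic reads and, chosen after seeing the data, 421 without experiment 1. The count depended on single libraries: it was 697 without DMSO 2 h replicate 1, whereas it was 45 without DMSO 6 h replicate 1, 63 without DMSO 2 h replicate 3, 64 without SW016789 6 h replicate 2, 67 without SW016789 2 h replicate 3, 89 without SW016789 6 h replicate 3, 166 without SW016789 2 h replicate 2, 168 without DMSO 6 h replicate 2 and 173 without DMSO 6 h replicate 3. A set of 35 genes, 18 higher and 17 lower, was called in the full data and after leaving out each of the 12 libraries in turn, and most genes described at length below are among them.

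**Figure D1:**
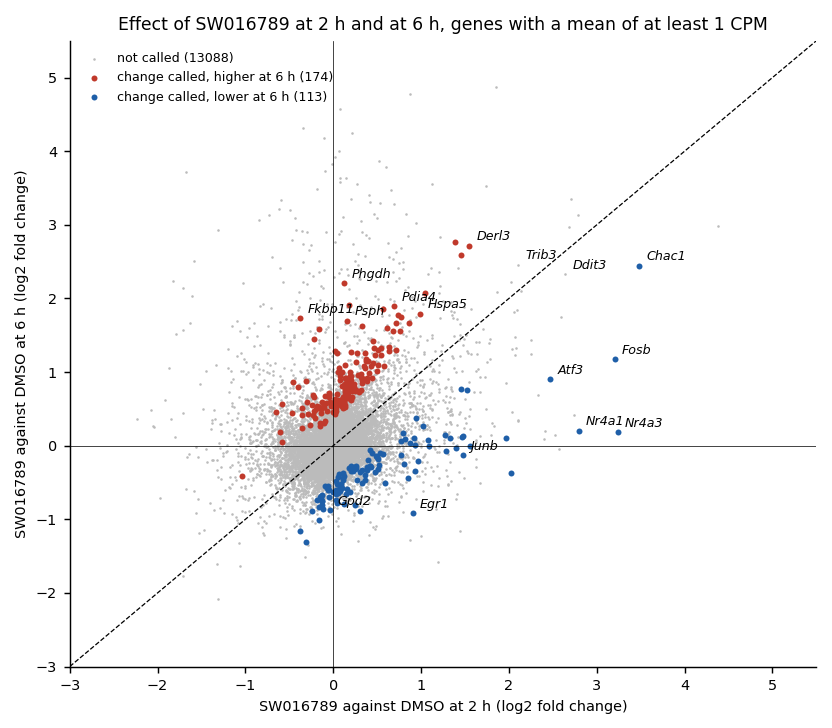
Each point is a gene with a mean of at least 1 CPM, placed by its log2 fold change of SW016789 against DMSO at 2 h (horizontal) and at 6 h (vertical). The 174 genes called higher (red) lie above the dashed line of equal effect and the genes called lower (blue) below it, with Nr4a3, Nr4a1 and Fosb far to the right at 2 h and Fkbp11 and Phgdh near 0 at 2 h.

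In the genes called, most of the movement was in the treated cells. Their median change from 2 to 6 h was 0.59 in SW016789 and -0.03 in DMSO among the 174, and -0.60 and 0.07 among those called lower. SW016789 at 6 h against SW016789 at 2 h differed in 788 genes (3.62%), which included 268 of the 287, 165 of them among the 174. This contrast is a part of the tested change, so the overlap is not separate evidence. Its count was 255 to 616 without single libraries, and 2373 genes had an unadjusted p below 0.05. DMSO at 6 h against DMSO at 2 h gave no call in edgeR (0.0%), with 2138 genes at an unadjusted p below 0.05, and 73 calls in DESeq2 and 0 in limma. That count became 645 without DMSO 2 h replicate 1, the library with the highest intergenic share in its group. Against DMSO of the same time, 562 genes were called at 2 h (2.58%) and 1531 at 6 h (7.04%). Read through those calls, the 174 comprised 41 genes raised at both times, 4 called at neither, 3 lowered only at 2 h (A230070E04Rik, Ankrd49 and Nelfb) and Fam134c, which was lowered at both. The other 71.8% were not called at 2 h and raised at 6 h. The genes called lower comprised 60 genes not called at 2 h and lowered at 6 h, 38 raised at 2 h and no longer called at 6 h, 6 raised at both times (Fosb, Atf3, Chac1, Sesn2, Ppargc1a and Bach1), 4 raised at 2 h and lowered at 6 h (Egr1, Ccsap, Hist1h3g and Smad1) and 5 called at neither. A gene called at 1 time and not at the other is not thereby shown to differ, which is what the test of the change addresses.

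The steepest losses were in immediate-early genes. Of 43 listed, 28 were raised at 2 h and 10 at 6 h (1.9% and 4.19% of all genes), and the effect fell between the times in 12 and rose in none, against 0.519% of all genes called lower. The median change of the list was -0.64, where that of all genes tested was 0.09, and it was -0.69, -0.87 and -0.71 in experiments 1, 2 and 3. The count was 9 without DMSO 6 h replicate 1, 9 without DMSO 2 h replicate 3 and 11 to 14 without any other library. It was 17 with the replicate block and 13 without experiment 1. The 3 genes of the NR4A family of orphan nuclear receptors, transcription factors that calcium and cyclic AMP induce quickly, had the largest called losses of all genes.

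Nr4a3 (chr4:48045305-48086446, plus strand, mm10) was at 33.3, 40.2 and 16.5 CPM in DMSO at 2 h, 22.1, 16.7 and 13.2 CPM in DMSO at 6 h, 318, 331 and 197 CPM in SW016789 at 2 h and 19.3, 24.97 and 14.4 CPM in SW016789 at 6 h. All 3 libraries of SW016789 at 2 h lay above the other 9, and those at 6 h lay within the range of DMSO. The effect on Nr4a3 was 3.24 ± 0.29 (SE) on the log2 scale at 2 h and 0.18 ± 0.28 at 6 h, a change of -3.05 ± 0.39, adjusted p = 6.2e-06. Nr4a1 was at 149.9, 70.6 and 106.7 CPM in DMSO at 2 h, 163, 63.9 and 108.2 CPM in DMSO at 6 h, 862, 778 and 633 CPM in SW016789 at 2 h and 117.3, 133 and 134 CPM in SW016789 at 6 h. As for Nr4a3, the libraries of SW016789 at 2 h did not overlap any other group and those at 6 h were inside the DMSO range. Its change was -2.60 ± 0.40, adjusted p = 9.8e-05, and that of Nr4a2, which encodes the third receptor, was -2.39 ± 0.36, adjusted p = 6.9e-05.

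Of the AP-1 transcription factors, Fosb was still called at 6 h and Fosl2 and Junb were not. Fosb was at 10.9, 5.37 and 15.6 CPM in DMSO at 2 h, 11.4, 8.42 and 10.4 CPM in DMSO at 6 h, 108.5, 112.4 and 74.4 CPM in SW016789 at 2 h and 26.1, 22.5 and 19.9 CPM in SW016789 at 6 h. Its libraries at 6 h were all below those at 2 h and all above DMSO, so that an effect of 1.18 was left of 3.20 (change -2.03 ± 0.31, adjusted p = 7.1e-05). Fosl2 fell from 1.97 ± 0.13 to 0.11 ± 0.12 (change -1.86 ± 0.17, adjusted p = 1.2e-08), and Junb from 1.48 ± 0.17 to -0.13 ± 0.17 (change -1.61 ± 0.24, adjusted p = 6.9e-05). Fos itself changed by -1.57 ± 0.42 with an adjusted p of 0.046, close to the threshold. That call was lost without any 1 of 9 libraries (all but DMSO 2 h replicate 1, DMSO 6 h replicate 2 and DMSO 6 h replicate 3), where the estimate was -1.75 to -1.16.

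Egr1, a zinc finger factor of the same early wave, passed from above to below DMSO. It was at 183, 170.2 and 93.4 CPM in DMSO at 2 h, 220.4, 191 and 114.6 CPM in DMSO at 6 h, 331, 296 and 209 CPM in SW016789 at 2 h and 95.2, 92.9 and 89.7 CPM in SW016789 at 6 h. The lowest library of SW016789 at 2 h lay under the highest of DMSO at 6 h, and the 3 libraries at 6 h overlapped DMSO only at its lowest library, DMSO 2 h replicate 3. Its effect was 0.90 ± 0.24, adjusted p = 0.033 at 2 h and -0.92 ± 0.24, adjusted p = 0.013 at 6 h, and the change was -1.82 ± 0.35, adjusted p = 0.0017. Per1, a repressor of the circadian clock that is also an early gene, fell from 1.40 ± 0.16 to -0.03 ± 0.16 (change -1.43 ± 0.22, adjusted p = 9.8e-05), and the synaptic scaffold gene Homer1 from 1.29 ± 0.11 to -0.07 ± 0.10 (change -1.36 ± 0.15, adjusted p = 3.7e-07). The GTPase gene Diras2, which is in none of the lists, changed by -1.35 ± 0.27, adjusted p = 0.0035, and lost the call without DMSO 6 h replicate 1 (-1.23 to -1.23). Npas4, a factor induced by calcium entry, was still called at 6 h (1.43 ± 0.34, after 2.25 ± 0.34 at 2 h), and its change of -0.81 ± 0.47 was not called (adjusted p = 0.51, 95% interval -1.76 to 0.13). Egr2 had an estimate of -2.32 ± 1.03 that was not called either (adjusted p = 0.38), with 0 to 2.17 CPM in DMSO at 2 h.

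**Figure D2:**
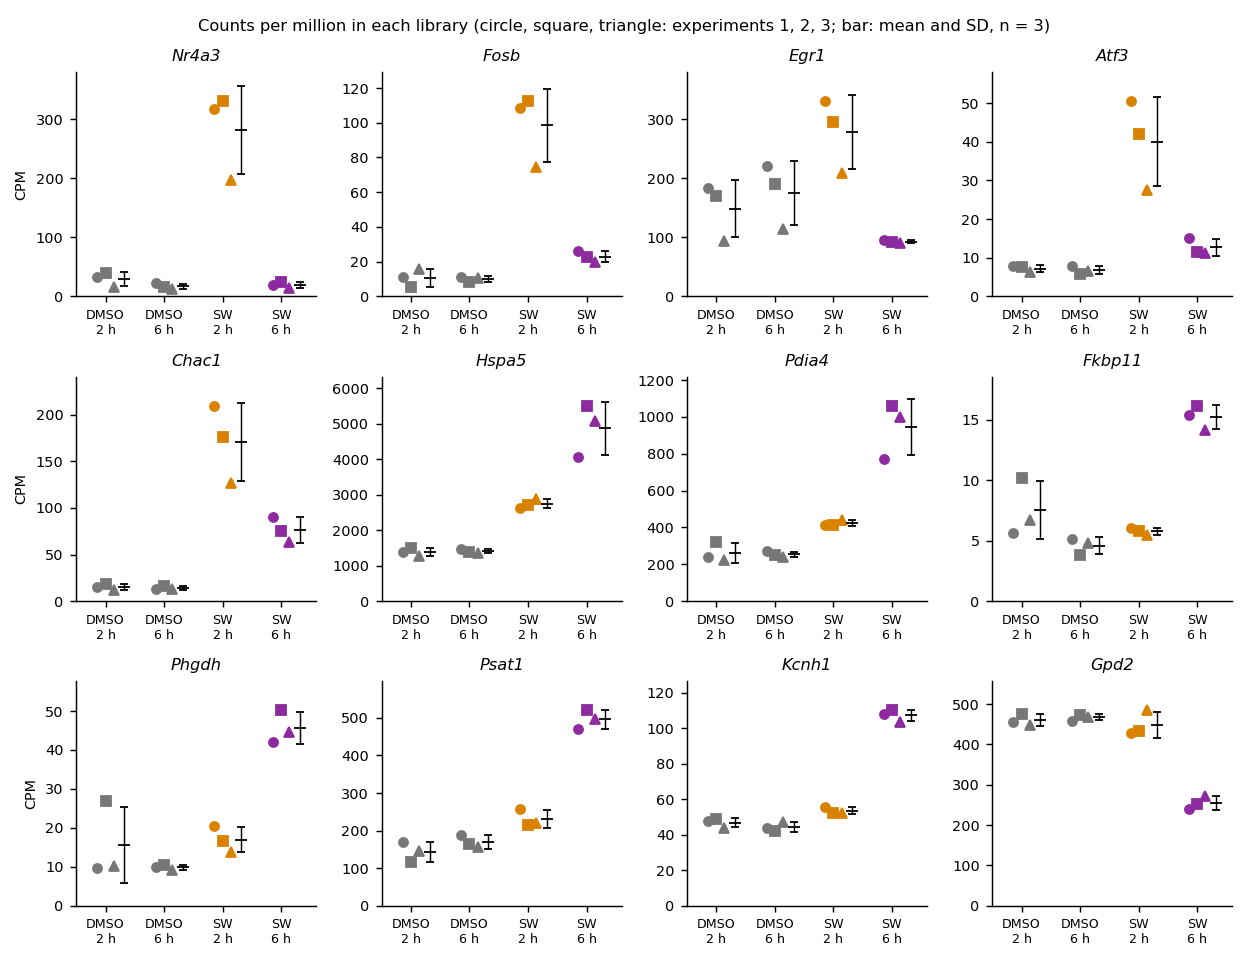
CPM (vertical axes, from 0) of 12 genes in the 12 libraries, with a symbol for each experiment and the mean and SD of the 3 libraries of a group. Nr4a3 is high only in SW016789 at 2 h, Fosb is highest there, Chac1 and Atf3 are lower at 6 h than at 2 h, the ER and serine genes are highest at 6 h, and Gpd2 is lowest at 6 h.

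The genes Nedd9, Dusp14, Nab2, Erf and Ccsap are in none of the lists and were chosen after their values were seen, because they were called lower in the full data and without each library in turn. Nedd9, a docking protein of integrin signalling, changed by -1.13 ± 0.14, adjusted p = 5.1e-06. The MAP kinase phosphatase gene Dusp14 changed by -1.33 ± 0.23, adjusted p = 0.00041. The EGR co-repressor gene Nab2 changed by -1.16 ± 0.22, adjusted p = 0.0016, and Erf, an ETS-family repressor, by -1.10 ± 0.19, adjusted p = 0.00046. All 4 were raised at 2 h (log2 effects 1.27, 1.47, 0.96 and 1.09) and were not called at 6 h (0.14, 0.14, -0.20 and -0.003). Ccsap, whose protein binds centrioles and cilia, went from 0.86 to -0.44 and was called at both times (change -1.30 ± 0.18, adjusted p = 2.5e-05).

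Targets of the PERK branch did not move as one group. Of 26 listed, 17 were raised at 2 h and 20 at 6 h (1.9% and 4.19% of all genes), and between the times 3 rose further and 3 fell, against 0.8% and 0.519% of all genes. The 3 that fell were Atf3, Chac1 and Sesn2, and the 3 that rose were Asns, Eif4ebp1 and Aldh18a1. Aldh18a1, an enzyme gene of proline synthesis, changed by 0.79 ± 0.14, adjusted p = 0.0012, and lost its call without any of 5 libraries (0.65 to 0.78). The list's median change was 0.35 (0.09 for all genes tested). Without single libraries the counts were 1 to 4 rising and 1 to 3 falling. The rise was down to 1 without SW016789 2 h replicate 3 or SW016789 6 h replicate 2, and the fall was down to 1 without DMSO 2 h replicate 3, DMSO 6 h replicate 1, DMSO 6 h replicate 2 or SW016789 6 h replicate 3. With the replicate block the counts were 5 and 3.

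Atf3, a stress-induced repressor that also belongs to the early response, was at 7.76, 7.66 and 6.23 CPM in DMSO at 2 h, 7.88, 5.87 and 6.50 CPM in DMSO at 6 h, 50.5, 42.1 and 27.5 CPM in SW016789 at 2 h and 15.2, 11.6 and 11.3 CPM in SW016789 at 6 h. The 3 groups of DMSO, SW016789 at 6 h and SW016789 at 2 h formed separate ranges in that order. Its effect fell from 2.47 ± 0.19 to 0.90 ± 0.19, a change of -1.57 ± 0.26, adjusted p = 0.00038. Chac1, which encodes an enzyme that breaks down glutathione, was at 15.6, 18.03 and 12.2 CPM in DMSO at 2 h, 13.3, 15.9 and 12.7 CPM in DMSO at 6 h, 209.7, 176 and 127 CPM in SW016789 at 2 h and 90.2, 75.4 and 62.9 CPM in SW016789 at 6 h. Its ranges had the same order, and it changed by -1.04 ± 0.27, adjusted p = 0.033. This call ended without any of DMSO 6 h replicates 1 and 2, SW016789 2 h replicates 1 and 2, SW016789 6 h replicates 2 and 3 or DMSO 2 h replicate 3, where the estimate was -1.14 to -0.87. Sesn2, a leucine-sensing inhibitor of mTORC1, changed by -0.76 ± 0.17, adjusted p = 0.0084, and lost its call without DMSO 6 h replicates 1 or 2, DMSO 2 h replicate 3, or SW016789 replicate 3 of either time (-0.91 to -0.70).

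Asns, the gene of asparagine synthetase, went the other way. It was at 151, 152 and 143 CPM in DMSO at 2 h, 173, 162 and 143 CPM in DMSO at 6 h, 278, 234 and 218 CPM in SW016789 at 2 h and 469, 543 and 508 CPM in SW016789 at 6 h. DMSO, SW016789 at 2 h and SW016789 at 6 h stood in rising order with no overlap, and its change was 0.96 ± 0.12, adjusted p = 4.3e-06, called also without each library. Eif4ebp1, whose protein restrains cap-dependent translation, rose from 1.46 ± 0.15 to 2.59 ± 0.15 (change 1.13 ± 0.21, adjusted p = 0.0014). It lost the call without SW016789 6 h replicate 2 or SW016789 2 h replicate 3, with 0.97 in each. Among the core members, Atf4 had effects of 1.62 ± 0.10 and 1.41 ± 0.10 (change -0.21 ± 0.14, adjusted p = 0.57, 95% interval -0.50 to 0.08). Ddit3, which encodes CHOP, had 2.64 ± 0.22 and 2.33 ± 0.21 (change -0.31 ± 0.29, adjusted p = 0.72, 95% interval -0.91 to 0.29). Trib3, a pseudokinase that CHOP induces, had 2.10 ± 0.17 and 2.46 ± 0.17 (change 0.36 ± 0.23, adjusted p = 0.57, 95% interval -0.12 to 0.83). Ppp1r15a, which encodes GADD34, had 1.44 ± 0.12 and 1.65 ± 0.12 (change 0.21 ± 0.17, adjusted p = 0.66, 95% interval -0.14 to 0.56). All 4 were called at both times, and Atf3, Chac1 and Sesn2 were still raised at 6 h (0.90, 2.44 and 0.76).

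Promoter windows of called genes with the CARE element, a short sequence bound by ATF4 and its partners, are shown here to describe where it lies. Promoters were taken from RefSeq (build GRCm38.p6, the sequence of mm10), as 250 bases before to 50 bases after each start site, and 16016 of the tested genes had such a window. TGATGNAA, searched on both strands, was found in 552 of the 16016 (3.45%) and in 3.97% of all 32851 windows. It was in 8 of 135 genes called higher (5.93%) and in 2 of 90 called lower (2.22%). Whether these shares differ from that of all genes was not tested. The 2 were Atf3 and Chac1, and the 8 were Asns, the tRNA synthetase genes Aars, Gars, Iars and Tars, and Got1, Mctp2 and Phactr1. The following 90 bases are read 5′ to 3′ on the strand of the gene with the match in capitals, from chr1:191183379-191183468 for Atf3, chr2:119351024-119351113 for Chac1, chr6:7693168-7693257 for Asns, chr8:111033705-111033794 for Aars, chr6:55037946-55038035 for Gars and chr15:11399609-11399698 for Tars (minus strand for Atf3, Asns and Tars, plus strand for the others).
Atf3: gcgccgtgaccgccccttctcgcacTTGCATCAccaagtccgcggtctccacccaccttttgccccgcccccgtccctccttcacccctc
Chac1: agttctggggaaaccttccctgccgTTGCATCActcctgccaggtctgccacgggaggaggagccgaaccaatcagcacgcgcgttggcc
Asns: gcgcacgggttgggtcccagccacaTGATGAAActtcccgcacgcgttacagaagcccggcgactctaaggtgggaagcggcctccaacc
Aars: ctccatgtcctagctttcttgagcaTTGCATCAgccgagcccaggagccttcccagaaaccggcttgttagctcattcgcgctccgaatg
Gars: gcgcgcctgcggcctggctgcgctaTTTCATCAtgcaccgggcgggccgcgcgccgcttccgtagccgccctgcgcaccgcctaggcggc
Tars: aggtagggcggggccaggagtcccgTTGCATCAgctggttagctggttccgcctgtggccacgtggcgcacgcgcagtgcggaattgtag
In 5 of these 6 genes the match lies on the opposite strand, as TTNCATCA, and in Asns it lies on the strand of the gene. A match is a description of the sequence and not evidence of binding.

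Chaperone genes of the ER rose in number. Of 26 genes that serve ATF6 and folding in the ER, 12 were raised at 2 h and 23 at 6 h (1.9% and 4.19% of all genes), and the effect grew in 17 and shrank in none, against 0.8% of all genes called higher. The list's median change was 0.63, or 0.39, 0.84 and 0.68 in experiments 1, 2 and 3. Beside 0.09 for all genes, it was 0.64 both under the size factors of DESeq2 and with the replicate block and the intergenic share as terms. The count depended on single libraries, being 4 without DMSO 6 h replicate 1 or SW016789 6 h replicate 2, 5 without DMSO 2 h replicate 3 or SW016789 6 h replicate 3, 8 without SW016789 2 h replicate 3 and 13 to 19 without any other, and in none of these fits was a member called lower. Fkbp11, Pdia4, Creld2 and Hyou1 were called throughout.

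Hspa5, which encodes the master chaperone BiP, was at 1378, 1489.9 and 1269 CPM in DMSO at 2 h, 1461, 1394 and 1367 CPM in DMSO at 6 h, 2628, 2718 and 2885 CPM in SW016789 at 2 h and 4051, 5502 and 5069.9 CPM in SW016789 at 6 h. DMSO, SW016789 at 2 h and SW016789 at 6 h formed 3 separate ranges, the highest at 6 h. Its effect rose from 0.99 ± 0.10 to 1.79 ± 0.10, a change of 0.80 ± 0.14, adjusted p = 0.00041. The call was lost without DMSO 6 h replicate 1, SW016789 6 h replicates 2 or 3, DMSO 2 h replicate 3 or SW016789 2 h replicate 3, where the change was still 0.62 to 0.81. Pdia4, a protein disulfide isomerase gene, was at 238, 323 and 225 CPM in DMSO at 2 h, 270.3, 250.1 and 242 CPM in DMSO at 6 h, 415, 413 and 443 CPM in SW016789 at 2 h and 774, 1060.2 and 1002 CPM in SW016789 at 6 h. The ranges were again apart in that order, and the change was 1.20 ± 0.13, adjusted p = 5.2e-07. Creld2, a secreted ER stress protein gene, changed by 1.03 ± 0.14, adjusted p = 1.1e-05, and Hyou1, which encodes the co-chaperone GRP170, by 0.98 ± 0.12, adjusted p = 3.1e-06.

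Fkbp11 (chr15:98724368-98728198, minus strand, mm10), a prolyl isomerase gene of the ER, had the largest called increase of all genes. It was at 5.64, 10.2 and 6.68 CPM in DMSO at 2 h, 5.11, 3.81 and 4.82 CPM in DMSO at 6 h, 6.02, 5.82 and 5.47 CPM in SW016789 at 2 h and 15.4, 16.1 and 14.1 CPM in SW016789 at 6 h. Only SW016789 at 6 h stood apart, with the 2 h libraries inside the DMSO range. DMSO was lower at 6 h than at 2 h in each experiment, most in experiment 2, and this fall is part of the change. Its effect was -0.38 ± 0.22 at 2 h and 1.73 ± 0.22 at 6 h, a change of 2.11 ± 0.31, adjusted p = 5.4e-05. The remaining chaperones made smaller steps, such as Pdia6 (0.87 ± 0.15, adjusted p = 0.00043), Hsp90b1, which encodes GRP94 (0.76 ± 0.11, adjusted p = 2.3e-05), Dnajc3, which encodes the inhibitor p58IPK (0.75 ± 0.11, adjusted p = 5.4e-05), and the lectin chaperone gene Calr (0.69 ± 0.11, adjusted p = 0.00015). These 4 were named for the promoter sequences they share, after their values were seen, and each lost its call in 4 or 5 of the 12 fits with 1 library left out, among them those without DMSO 6 h replicate 1, SW016789 6 h replicates 2 and 3 and DMSO 2 h replicate 3 (lowest estimates 0.70, 0.59, 0.62 and 0.54). Atf6, the gene of the sensor itself, was not called at 2 h (0.14 ± 0.08) and rose to 0.92 ± 0.08 (change 0.79 ± 0.11, adjusted p = 1.5e-05). It lost the call without DMSO 6 h replicate 1 or SW016789 6 h replicate 2 (0.64 to 0.73).

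The windows of called genes with an exact ER stress response element, the site through which ATF6 acts, are printed here because such a copy is rare among promoters. The element, CCAAT and CCACG with any 9 bases between them, searched on both strands, stood in 26 of the 16016 genes with a window (0.162%), and in 39 of all 32851 windows (0.119%). It stood in 8 of the 135 genes called higher (5.93%) and in 0 of the 90 called lower, and 7 of the 8 were already raised at 2 h. The exception was Canx, which encodes calnexin (change 0.39 ± 0.10, adjusted p = 0.045, a call lost in 11 of the 12 fits, with 0.27 to 0.42). Of the 26, 8 were called higher at 2 h and 11 at 6 h (1.9% and 4.19% of all genes). Other sequences were searched in the same way. TGACGTGG stood in 5 of the 135 (3.70%) and 2 of the 90 (2.22%), against 0.918% of the 16016. TGACGTCA stood in 0 and 2, against 2.79%, and CCWWWWWWGG, with W for A or T, in 1 and 3, against 1.68%. These shares were not tested. The windows of 90 bases, with the whole element in capitals, are from chr2:34772000-34772089 for Hspa5, chr10:86705592-86705681 for Hsp90b1, chr15:88819495-88819584 for Creld2, chr10:75893217-75893306 for Derl3, chr12:17266466-17266555 for Pdia6, chr14:118937802-118937891 for Dnajc3, chr8:84847029-84847118 for Calr and chr11:50325754-50325843 for Canx (minus strand for Hsp90b1, Calr and Canx, plus strand for the others).
Hspa5: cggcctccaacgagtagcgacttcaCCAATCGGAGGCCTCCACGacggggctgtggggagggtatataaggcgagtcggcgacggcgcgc
Hsp90b1: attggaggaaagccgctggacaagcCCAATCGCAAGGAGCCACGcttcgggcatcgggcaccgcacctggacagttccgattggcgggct
Creld2: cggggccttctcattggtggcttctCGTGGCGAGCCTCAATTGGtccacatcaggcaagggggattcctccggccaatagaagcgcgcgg
Derl3: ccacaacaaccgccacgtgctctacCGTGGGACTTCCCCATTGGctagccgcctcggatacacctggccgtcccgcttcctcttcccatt
Pdia6: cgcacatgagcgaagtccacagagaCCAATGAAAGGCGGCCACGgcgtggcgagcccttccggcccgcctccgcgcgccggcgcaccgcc
Dnajc3: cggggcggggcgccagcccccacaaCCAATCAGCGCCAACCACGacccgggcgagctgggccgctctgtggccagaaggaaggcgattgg
Calr: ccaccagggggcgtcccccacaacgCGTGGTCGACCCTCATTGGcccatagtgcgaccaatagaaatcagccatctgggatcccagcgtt
Canx: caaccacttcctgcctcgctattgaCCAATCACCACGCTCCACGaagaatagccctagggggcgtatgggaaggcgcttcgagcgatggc
In Creld2, Derl3 and Calr the element lies on the opposite strand, so that it reads CGTGG first and ATTGG last. The genes with an exact element and no called change included Syvn1, the ubiquitin ligase gene of ER disposal, whose effect was 0.83 ± 0.11 at 2 h and 1.13 ± 0.11 at 6 h (change 0.30 ± 0.15, adjusted p = 0.44, 95% interval -0.0027 to 0.60).

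The rest of the ER machinery followed in part. Of 24 genes of the IRE1 and XBP1 branch and of entry into the ER, 3 were raised at 2 h and 21 at 6 h, and 8 had a called increase between the times, against 1.9%, 4.19% and 0.8% of all genes, with a median change of 0.43. Xbp1 was raised at 2 h (0.41 ± 0.10) and at 6 h (0.77 ± 0.10). Its change of 0.37 ± 0.14 was not called (adjusted p = 0.25), but was called with the replicate block (adjusted p = 0.041). Ssr3, a subunit gene of the translocon-associated complex, changed by 0.55 ± 0.10, adjusted p = 0.002. Of 32 genes of ER-associated degradation, 7 were raised at 2 h, 15 at 6 h and 6 in the change (median 0.15), beside the same shares of all genes. The 6 were Derl3 (1.16 ± 0.28, adjusted p = 0.022), Sel1l, which encodes the adaptor of the disposal complex (0.79 ± 0.11, adjusted p = 1.1e-05), the mannosidase-like genes Edem1, Edem2 and Edem3 and the channel gene Derl1. Herpud1, a partner of the disposal complex, was raised at both times (2.05 ± 0.11 and 1.81 ± 0.11), with no called change (-0.24 ± 0.15, adjusted p = 0.55, 95% interval -0.56 to 0.07). No call of the entry list remained without DMSO 2 h replicate 3, DMSO 6 h replicate 1, SW016789 2 h replicate 3, SW016789 6 h replicate 2 or SW016789 6 h replicate 3, and 0 or 1 disposal gene was called without any 1 of these 5. The entry list was also down to 2 to 4 without DMSO 2 h replicate 2, DMSO 6 h replicate 2, DMSO 6 h replicate 3, SW016789 2 h replicate 1 or SW016789 2 h replicate 2, and the disposal list to 2 or 3 without DMSO 6 h replicate 2, DMSO 6 h replicate 3 or SW016789 2 h replicate 2. Sel1l lost its call without DMSO 6 h replicate 1 and SW016789 6 h replicate 2 (0.66 to 0.72), and Derl3 without any of the first 5, DMSO 2 h replicate 1 or DMSO 6 h replicate 2 (0.85 to 1.21). With the replicate block the counts were 10 and 6.

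Genes of transport out of the ER were called at 6 h and not at 2 h. None of 27 genes of the COP-II coat and ER exit was called at 2 h, 22 were raised at 6 h, and 6 had a called increase, with a median change of 0.40. The cargo-selecting coat gene Sec24d was at 139, 129 and 139.6 CPM in DMSO at 2 h, 161, 139 and 138 CPM in DMSO at 6 h, 165, 166 and 155 CPM in SW016789 at 2 h and 306, 351 and 309 CPM in SW016789 at 6 h. The libraries of SW016789 at 6 h stood clear of the other 9, and the change was 0.89 ± 0.15, adjusted p = 0.00033. It lost the call without SW016789 6 h replicate 2 or DMSO 2 h replicate 3 (0.73 to 0.82). Lman1, the cargo receptor ERGIC-53, changed by 0.70 ± 0.12, adjusted p = 0.0004. Of 18 genes of the COP-I coat and KDEL receptors, which bring ER proteins back, 0 were called at 2 h, 12 at 6 h and 3 in the change (Kdelr2, Arfgap3 and Arcn1, median of the list 0.35). The background shares were again 1.9% at 2 h, 4.19% at 6 h and 0.8% in the change. Without DMSO 2 h replicate 3, DMSO 6 h replicate 1, SW016789 2 h replicate 3, SW016789 6 h replicate 2 or SW016789 6 h replicate 3 the counts for the change were 0 or 1 for either list. Without DMSO 6 h replicate 2, DMSO 6 h replicate 3 or SW016789 2 h replicate 2 the exit list fell to 3, and it was 4 without DMSO 2 h replicate 2 and 10 without DMSO 2 h replicate 1. The COP-I list was also at 0 or 1 without any of these 3, DMSO 2 h replicate 2 or SW016789 2 h replicate 1, so that its calls held only without replicate 1 of DMSO at 2 h or of SW016789 at 6 h (4 in each). With the replicate block the counts were 9 and 6.

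**Figure D3:**
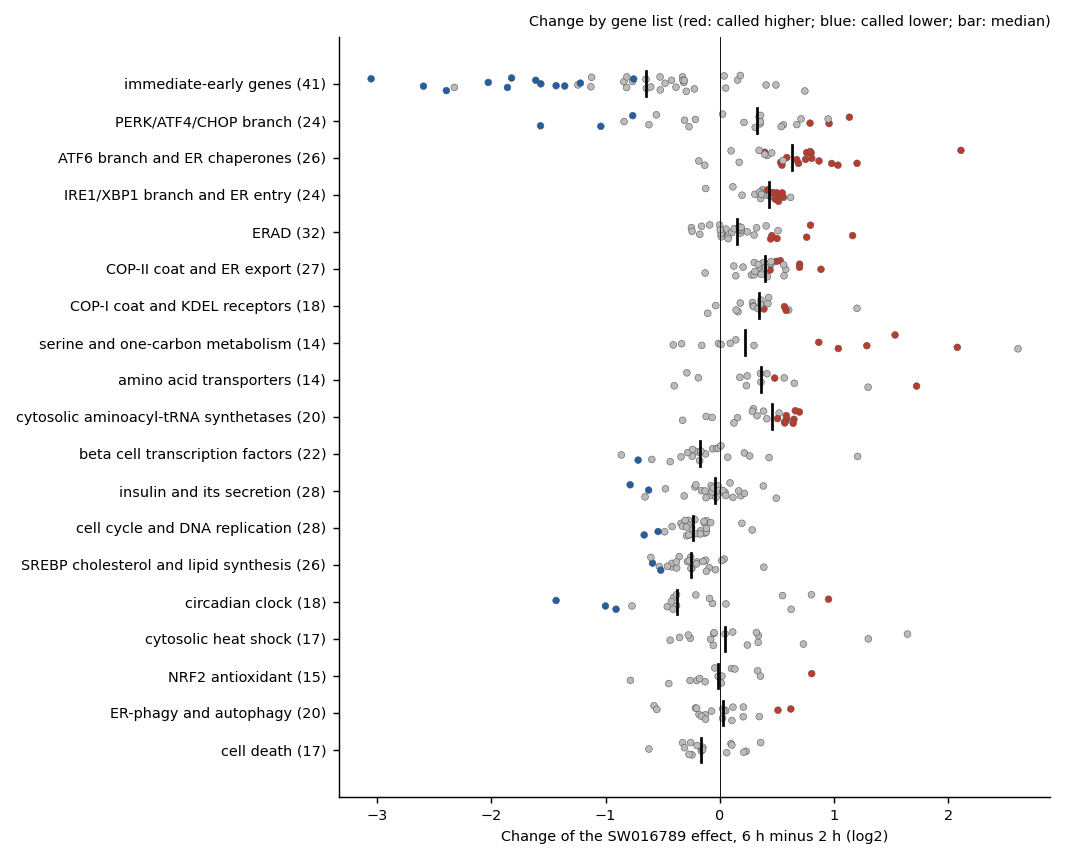
Change of the SW016789 effect from 2 to 6 h on the log2 scale (horizontal) for the genes of 19 lists that average at least 1 CPM, with the number plotted in parentheses and the median of those plotted as a bar. Blue points, called lower, collect in the immediate-early list, and red points, called higher, in the chaperone, ER and tRNA synthetase lists.

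The effect on genes of serine synthesis grew between 2 and 6 h. Of 15 genes of serine and one-carbon metabolism, 4 were raised at 2 h and 7 at 6 h, and 5 had a called increase, against 1.9%, 4.19% and 0.8% of all genes. The 5 held their call without each of the 12 libraries. The median change of the list was 0.30, while the called 5 ran from 0.87 to 2.08. Phgdh (chr3:98313171-98339969, minus strand, mm10), the first enzyme of the pathway from glycolysis to serine, was at 9.68, 26.9 and 10.1 CPM in DMSO at 2 h, 9.99, 10.5 and 9.24 CPM in DMSO at 6 h, 20.4, 16.6 and 13.9 CPM in SW016789 at 2 h and 42.1, 50.1 and 44.6 CPM in SW016789 at 6 h. The libraries of SW016789 at 6 h lay above all others, and DMSO 2 h replicate 2 was higher than the 3 libraries of SW016789 at 2 h. The effect went from 0.12 ± 0.23 to 2.20 ± 0.23, a change of 2.08 ± 0.32, adjusted p = 9.2e-05, with 1.42 to 2.33 over the fits with 1 library left out.

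Psat1, the second enzyme, was at 169.7, 115.3 and 146 CPM in DMSO at 2 h, 189, 163 and 155 CPM in DMSO at 6 h, 258, 214 and 219 CPM in SW016789 at 2 h and 471, 519.8 and 498 CPM in SW016789 at 6 h. DMSO, SW016789 at 2 h and SW016789 at 6 h did not overlap, and the change was 0.87 ± 0.13, adjusted p = 6.9e-05. Psph, the last enzyme, was not called at 2 h (0.16 ± 0.18) and rose to 1.70 ± 0.18 at 6 h (change 1.53 ± 0.25, adjusted p = 0.00022). The mitochondrial folate enzymes Shmt2 and Aldh1l2 changed by 1.04 ± 0.16, adjusted p = 6.9e-05, and by 1.29 ± 0.16, adjusted p = 4.3e-06. Their neighbour Mthfd2 had most of its rise by 2 h (0.89 ± 0.09, against 1.18 ± 0.09 at 6 h), and its change of 0.30 ± 0.12 was not called (adjusted p = 0.32, 95% interval 0.05 to 0.55).

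Among the genes that load amino acids onto tRNA 9 rose, in smaller steps. Of 20 cytosolic aminoacyl-tRNA synthetases, 11 were raised at 2 h, 16 at 6 h and 9 in the change, against 1.9%, 4.19% and 0.8% of all genes, with a median change of 0.46 (0.27, 0.53 and 0.42 by experiment). The other 11 were not called, and the estimates of Dars, Farsa and Qars were below 0 (-0.12, -0.33 and -0.07). The called changes ran from 0.51 for Sars to 0.70 for Nars, and included Wars, which was not called at 2 h (0.04 ± 0.08, then 0.70 ± 0.08, change 0.66 ± 0.11, adjusted p = 0.00022). None of the 9 calls remained without DMSO 2 h replicate 3, DMSO 6 h replicate 1, SW016789 2 h replicate 3, SW016789 6 h replicate 2 or SW016789 6 h replicate 3, and 6 to 10 genes were called without any other library. Xpot, which encodes the exporter of tRNA from the nucleus and was chosen after its values were seen, changed by 0.90 ± 0.13, adjusted p = 5.3e-05, and lost its call without SW016789 6 h replicate 2 alone (0.75). Among 16 amino acid transporters 2 had a called increase (0.8% of all genes), the cationic amino acid carrier gene Slc7a3 (1.72 ± 0.40, adjusted p = 0.018) and Slc7a5, which encodes LAT1 (0.48 ± 0.13, adjusted p = 0.041). The call of Slc7a3 ended in 6 of the 12 fits with 1 library left out (1.34 to 1.65) and that of Slc7a5 in 11 (0.32 to 0.51), so that 0 or 1 of the list was called in any of them.

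Several genes with a called increase belong to none of these groups. Of the 10 described here, Wnt5a was also called at 2 h (1.38 ± 0.26) and the other 9 were not. Fam129a, which encodes the stress protein Niban, had an effect of -0.16 ± 0.16 at 2 h and a change of 1.74 ± 0.23, adjusted p = 8e-06. Smoc1, a secreted calcium-binding matrix protein gene, changed by 1.30 ± 0.17, adjusted p = 1e-05, and Aff2, a gene of nuclear speckles, by 1.22 ± 0.18, adjusted p = 5.4e-05. The collagen receptor gene Ddr2 (1.66 ± 0.38, adjusted p = 0.015), the secreted Lgi2 (1.32 ± 0.29, adjusted p = 0.0078) and the secreted signal gene Wnt5a (1.39 ± 0.36, adjusted p = 0.041) were among the 12 largest increases and lost their calls in 5, 4 and 10 of the 12 fits (1.51 to 1.64, 0.86 to 1.30 and 0.85 to 1.51). Kcnip1, whose protein modulates A-type potassium channels, changed by 1.27 ± 0.14, adjusted p = 2.7e-07. Kcnh1, an ether-a-go-go potassium channel gene chosen after its values were seen, was at 47.7, 48.7 and 43.8 CPM in DMSO at 2 h, 44.1, 41.9 and 47.5 CPM in DMSO at 6 h, 55.7, 52.5 and 52.5 CPM in SW016789 at 2 h and 108.003, 110.1 and 103.8 CPM in SW016789 at 6 h. Its 3 libraries of SW016789 at 2 h lay just above the 6 of DMSO, without a call (0.20 ± 0.07, adjusted p = 0.17), and those at 6 h lay close together and far above the other 9, and the change was 1.07 ± 0.10, adjusted p = 1.2e-08. The receptor guanylyl cyclase gene Gucy2c changed by 0.87 ± 0.11, adjusted p = 5.1e-06, and Rint1, a tether between Golgi and ER, by 0.89 ± 0.12, adjusted p = 2.5e-05. Gucy2c and Rint1 were picked after their values were seen, and these 2 and Fam129a, Smoc1, Aff2, Kcnip1 and Kcnh1 were called without each library in turn.

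Other losses were in genes not called at 2 h and lowered at 6 h. Gpd2, the mitochondrial enzyme of the glycerol phosphate shuttle, chosen after its values were seen, was at 456, 477 and 448 CPM in DMSO at 2 h, 459, 474 and 469 CPM in DMSO at 6 h, 428, 432 and 484 CPM in SW016789 at 2 h and 239, 251 and 273 CPM in SW016789 at 6 h. The 9 other libraries overlapped each other, and SW016789 at 6 h lay below all of them. The change was -0.84 ± 0.13, adjusted p = 6.9e-05, and it lost the call without DMSO 2 h replicate 3, with an estimate of -0.87. The calcium-dependent kinase gene Camk4, also chosen after its values were seen, changed by -1.05 ± 0.15, adjusted p = 5.4e-05 and was called without each library. Of 28 genes of insulin and its secretion, 2 fell, the glucose transporter gene Slc2a2 (-0.79 ± 0.20, adjusted p = 0.029) and the incretin receptor gene Glp1r (-0.62 ± 0.13, adjusted p = 0.0049), against 0.519% of all genes. Slc2a2 was at 100.3, 106.9 and 92.4 CPM in DMSO at 2 h, 110.6, 112.6 and 87.1 CPM in DMSO at 6 h, 67.7, 84.7 and 78.4 CPM in SW016789 at 2 h and 41.8, 47.5 and 49.1 CPM in SW016789 at 6 h. It stood in the order DMSO, SW016789 at 2 h and SW016789 at 6 h with no overlap. Its call was lost in 8 of the 12 fits with 1 library left out (-0.91 to -0.72) and that of Glp1r in 4 (-0.74 to -0.62), in both cases without DMSO 2 h replicate 3, DMSO 6 h replicate 1, SW016789 2 h replicate 3 or SW016789 6 h replicate 2.

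The insulin genes themselves had no called change. Ins2 was at 9916, 10977 and 9899 CPM in DMSO at 2 h, 10552, 11082 and 10295 CPM in DMSO at 6 h, 9959, 10952 and 11276 CPM in SW016789 at 2 h and 7776, 13359 and 11486 CPM in SW016789 at 6 h. The groups overlapped, with the lowest and the highest library both in SW016789 at 6 h, and the change was -0.03 ± 0.18 (95% interval -0.40 to 0.33). For Ins1 it was -0.08 ± 0.25 (95% interval -0.59 to 0.42, adjusted p = 0.97). Pdx1, the master factor of beta cells, was lowered at both times, with no called change (-0.44 ± 0.10 and -0.43 ± 0.10, change 0.01 ± 0.14, 95% interval -0.28 to 0.30). Of 23 beta cell transcription factors 1 had a called change (1.32% of all genes), the nuclear receptor gene Esrrg (-0.72 ± 0.18, adjusted p = 0.026), which was called at neither time on its own and lost the call in 9 of the 12 fits (-0.86 to -0.53). Mafa, an activator of insulin transcription, changed by -0.86 ± 0.25 without a call (adjusted p = 0.077), and passed the threshold with the replicate block (adjusted p = 0.02).

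Of 18 clock genes, 3 fell and 1 rose, where 0.519% of all genes were called lower and 0.8% higher, the shares that apply to each list of this paragraph. Besides Per1, the output factor Dbp (-0.91 ± 0.23, adjusted p = 0.033) and Per3 (-1.002 ± 0.25, adjusted p = 0.027) fell, and the repressor gene Cry1 rose (0.95 ± 0.16, adjusted p = 0.00046). The median of the list was -0.38. The calls of Dbp and Per3 ended in 8 and 7 of the 12 fits (-1.02 to -0.84 and -1.12 to -0.76), and that of Cry1 without DMSO 2 h replicate 3, DMSO 6 h replicate 1 or SW016789 6 h replicate 2 (0.72 to 0.87). Smaller counts came from 29 genes of the cell cycle, where Rrm2 (-0.66 ± 0.14, adjusted p = 0.0068) and Ccne1 (-0.54 ± 0.13, adjusted p = 0.018) fell, and Insig1, whose protein restrains cholesterol synthesis, fell too (-0.52 ± 0.12, adjusted p = 0.014). None of these 3 was called without DMSO 2 h replicate 3, DMSO 6 h replicate 1, SW016789 2 h replicate 3 or SW016789 6 h replicate 2, and the calls ended in 4 fits for Rrm2 (-0.73 to -0.62), 9 for Ccne1 (-0.66 to -0.48) and 8 for Insig1 (-0.60 to -0.41). Of 20 cell death genes and 17 cytosolic heat shock genes none was called, of 16 genes of the NRF2 response only Hmox1 rose (0.80 ± 0.18, adjusted p = 0.011), and of 20 genes of autophagy Sqstm1 (0.51 ± 0.11, adjusted p = 0.0073) and the ER-phagy receptor gene Fam134c (0.62 ± 0.13, adjusted p = 0.0048) rose. These last 3 calls ended, among others, without DMSO 2 h replicate 3, DMSO 6 h replicate 1, SW016789 2 h replicate 3, SW016789 6 h replicate 2 or SW016789 6 h replicate 3, with estimates of 0.60 to 0.81, 0.36 to 0.49 and 0.49 to 0.58. The rise of Fam134c was a partial return, from -1.04 ± 0.09 at 2 h to -0.41 ± 0.09 at 6 h.

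The neighbouring times place the 2 to 6 h step within the whole course. At 1 h the effect was 3.68 ± 0.23 for Fosb, 2.31 ± 0.25 for Egr1 and 2.64 ± 0.17 for Junb, above the 2 h values of 3.20, 0.90 and 1.48, whereas Nr4a1 had 2.19 ± 0.29 at 1 h and 2.80 at 2 h. These differences between 1 and 2 h were not tested. At 24 h Nr4a1 and Nr4a3 were below DMSO (-1.73 ± 0.29, adjusted p = 0.00017, and -1.64 ± 0.31, adjusted p = 0.00072). The chaperones began near 0 at 1 h (0.14 ± 0.10 for Hspa5 and 0.03 ± 0.10 for Pdia4) and were 0.69 ± 0.10 and 0.98 ± 0.10 at 24 h, beside 1.79 and 1.90 at 6 h, a difference that was not tested. Fkbp11 was 2.18 ± 0.22 at 24 h.

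**Figure D4:**
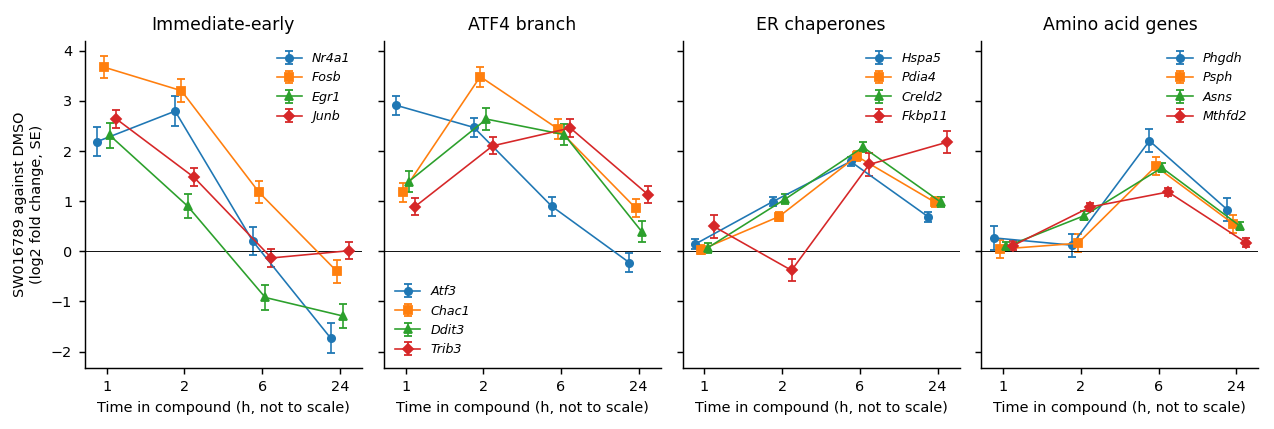
Log2 fold change of SW016789 against DMSO of the same time (vertical, with SE) at 1, 2, 6 and 24 h (horizontal, not to scale) for 4 genes in each of 4 groups. The immediate-early genes fall from 2 to 6 h, Atf3 and Chac1 fall while Ddit3 and Trib3 have no called change, and the 4 chaperones and Phgdh, Psph and Asns are higher at 6 h.

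The same interval was then set against thapsigargin, with a test of the difference between the compounds in which the DMSO libraries cancel. The change from 2 to 6 h differed in 406 genes (1.87%), 198 of them higher with SW016789 and 208 lower, and in 699 with the replicate block. The intergenic share was 20.96% to 30.9% in thapsigargin at 2 h and 8.23% to 33.95% at 6 h. At 2 h it was 7.32% to 20.6% in SW016789, below every thapsigargin library, so compound and intergenic share cannot be told apart there. Leaving out libraries above 25% removes replicates 1 and 3 of thapsigargin at 2 h, so no count is given for that setting. The count was 57 to 470 without single libraries, with 57 without thapsigargin 2 h replicate 3, 68 without thapsigargin 2 h replicate 1, 70 without thapsigargin 6 h replicate 1, 75 without SW016789 6 h replicate 3, 100 without SW016789 6 h replicate 2, a count between 100 and 197 without SW016789 2 h replicate 3, 197 without SW016789 2 h replicate 2, 212 without SW016789 2 h replicate 1 and 240 without thapsigargin 6 h replicate 3. Of the 43 immediate-early genes 16 had a lower change with SW016789 and 0 a higher one (0.956% and 0.91% of all genes), or 10 lower without thapsigargin 6 h replicate 1 and 11 to 18 without any other library. Nr4a3 changed by -3.05 ± 0.39 with SW016789 and by -0.11 ± 0.38 with thapsigargin, a difference of -2.95 ± 0.39, adjusted p = 9.1e-06. The corresponding pairs were -2.60 and -0.40 for Nr4a1 (difference -2.20 ± 0.40, adjusted p = 0.0011), -2.03 and 0.06 for Fosb (difference -2.09 ± 0.30, adjusted p = 4e-05), and -1.82 and -0.04 for Egr1 (difference -1.78 ± 0.34, adjusted p = 0.0022).

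Of the 26 genes of the PERK branch 9 had a lower change with SW016789 and 0 a higher one, against 0.956% and 0.91% of all genes, and 7 to 11 lower without single libraries. Atf3 was at 39.7, 40.00 and 33.1 CPM at 2 h and 70.7, 58.9 and 61.2 CPM at 6 h of thapsigargin, the opposite direction to SW016789. It changed by -1.57 ± 0.26 with SW016789 and by 0.86 ± 0.26 with thapsigargin (difference -2.43 ± 0.25, adjusted p = 2e-07). Chac1 changed by -1.04 and 0.55 (difference -1.59 ± 0.25, adjusted p = 0.00022), and Sesn2 by -0.76 and 0.76 (difference -1.52 ± 0.16, adjusted p = 4e-07). Trib3 changed by 0.36 and 1.61 (difference -1.26 ± 0.23, adjusted p = 0.001), and Ppp1r15a by 0.21 and 1.28 (difference -1.07 ± 0.17, adjusted p = 0.00022). These 5 genes and the 4 early genes above differed without any 1 library. For Ddit3 the difference was -0.96 ± 0.29 and was not called (adjusted p = 0.078, 95% interval -1.54 to -0.38), but it was called with the replicate block (adjusted p = 0.0039).

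For chaperone genes the difference ran the other way. Pdia4 was at 239, 266 and 252 CPM at 2 h and 282, 282 and 288 CPM at 6 h of thapsigargin. It changed by 1.20 ± 0.13 with SW016789 and by 0.21 ± 0.13 with thapsigargin (difference 0.99 ± 0.13, adjusted p = 1.8e-05), and Creld2 by 1.03 and 0.06 (difference 0.97 ± 0.14, adjusted p = 4e-05), both called without each library. Of the 26 chaperone genes 13 had a higher change with SW016789 and 0 a lower one, against 0.91% and 0.956% of all genes. Herpud1, in the disposal list, had a lower change with SW016789 (-0.24 and 0.74, difference -0.98 ± 0.15, adjusted p = 0.00021), called without each library, and was the only called difference among the 32 disposal genes. The 13 became 2 without SW016789 6 h replicate 2, SW016789 6 h replicate 3 or thapsigargin 2 h replicate 1, 3 without SW016789 2 h replicate 3 or thapsigargin 2 h replicate 3, 4 without thapsigargin 6 h replicate 1, 8 without SW016789 2 h replicate 2 and 11 to 14 without any other library. For Hspa5 the changes were 0.80 and 0.50, and the difference of 0.30 ± 0.14 was not called (adjusted p = 0.39, 95% interval 0.03 to 0.58). In the serine pathway Phgdh changed by 2.08 and 2.59 with no called difference (adjusted p = 0.7, 95% interval -1.15 to 0.13), nor was Psph called (95% interval -0.65 to 0.35). Shmt2 rose less with SW016789 (1.04 and 1.78, difference -0.75 ± 0.16, adjusted p = 0.0056), a call lost without thapsigargin 6 h replicate 1, thapsigargin 2 h replicate 3 or SW016789 6 h replicate 3 (-0.78 to -0.68). For 3 genes of secreted proteins the change was called lower with thapsigargin and not called with SW016789. The transport protein gene Ttr changed by -1.15 ± 0.15 with thapsigargin and -0.02 ± 0.15 with SW016789 (difference 1.13 ± 0.15, adjusted p = 2.2e-05), and the hormone gene Stc1 by -1.36 and -0.13 (difference 1.24 ± 0.20, adjusted p = 0.00026). Ins2 changed by -1.02 and -0.03 (difference 0.99 ± 0.18, adjusted p = 0.0012), which was not called without thapsigargin 2 h replicate 1 or 3, thapsigargin 6 h replicate 1, SW016789 2 h replicate 3 or SW016789 6 h replicates 2 or 3 (0.76 to 1.02). Asns rose and Gpd2 fell with both compounds, with differences of -0.33 ± 0.12 (adjusted p = 0.18) and -0.02 ± 0.13 (adjusted p = 0.99) that were not called.

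**Figure D5:**
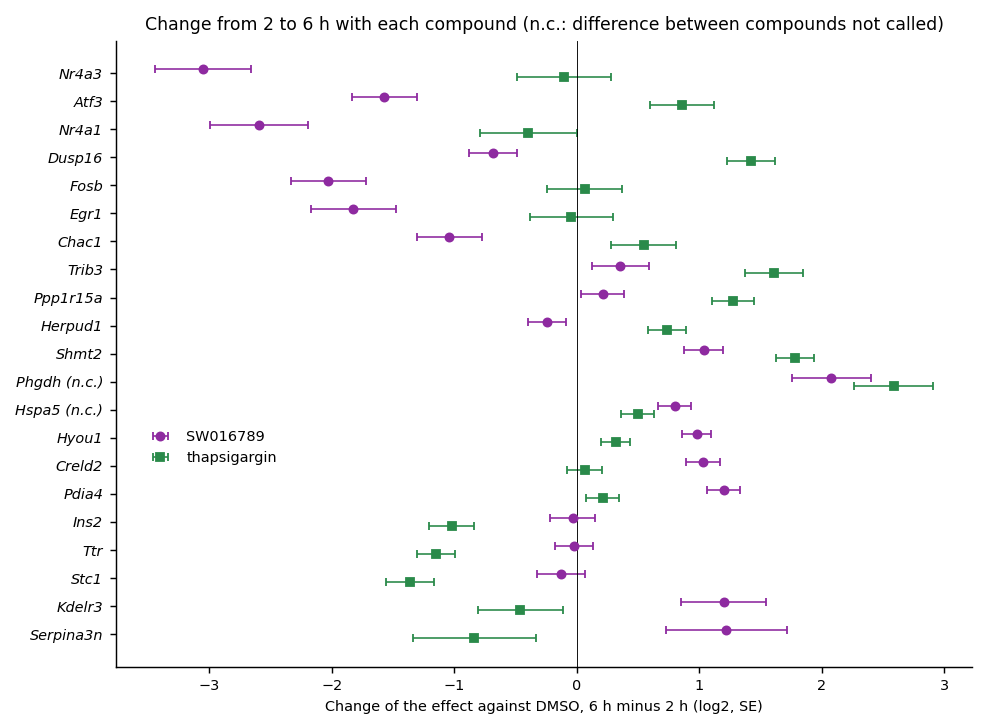
Change of the effect from 2 to 6 h (horizontal, log2, with SE) for SW016789 (circles) and thapsigargin (squares), both against the same DMSO libraries, in 21 genes. Nr4a3 to Herpud1 lie further left with SW016789, Hyou1 to Serpina3n further right, and the difference was not called for Phgdh and Hspa5.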

How the data were processed

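Total RNA of MIN6 cells was sequenced in 3 experiments of 13 samples each, and the labels gave each sample its group and experiment number. The values used are raw counts per gene symbol, deposited by the authors and made by mapping to mm10 with STAR and counting uniquely mapped pairs by strand with featureCounts. STAR is given as 2.5.2b and Subread as 1.5.1 in the submitters' processing notes, while the study's methods give other versions, and the sources also differ on the library kit, which could change how much intronic and intergenic sequence is read. Near-identical gene copies such as Hspa1a and Hspa1b share reads that unique mapping drops, so their counts are uncertain. A deposited mapping table gives, as the authors computed them, the intergenic and intronic percent of high-quality reads. A further 78 columns of per-sample values were not used.

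All 39 libraries entered 1 fit in edgeR 4.0.16 under R 4.3.3 (9150443 to 47616080 counts, common dispersion 0.344). Genes were filtered by filterByExpr and scaled by TMM, and a quasi-likelihood model took 13 group means without a block. Tests of contrasts were two-sided, with p-values adjusted by Benjamini-Hochberg over the 21752 genes left. Values after ± are standard errors, intervals are those of the fit, CPM are TMM-scaled, and changes by experiment use a prior count of 2. The fit and the contrast of the change were run on simulated counts with known changes. These were larger than most called here and were placed in well-expressed genes of low dispersion. The simulation held no differences between experiments or in intergenic share, so it does not address the dependence on single libraries. Since each library of a group is from its own experiment with 1 cell line, the spread behind the p-values is that between libraries of different experiments. It includes differences in library quality and was estimated over all 13 groups. No 2 libraries of a group agreed within sampling noise (lowest chi-square per degree of freedom 5.87 among 39 pairs).

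The experiment number pairs the samples, since the samples of an experiment were collected together. Deviations from group means correlated across genes with r above 0.1 in 8 of 18 pairs that share a number (median 0.08) and in 10 of 36 that do not (median -0.04). The other settings tried were DESeq2 1.42.0, limma 3.58.1 (voom with quality weights), DESeq2 size factors in edgeR, no filter or a mean of 1 CPM, the experiment as a block, with or without the intergenic percent, the compared libraries alone, libraries above 25% intergenic reads left out, and each library left out.

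The comparison and the 22 gene lists were chosen with earlier results of these data known. Named genes are the 12 highest and 12 lowest called changes averaging 1 CPM or more, members among the 4 largest changes of each list, 46 genes chosen together with the lists, and the 6 highest and 6 lowest called differences from thapsigargin, with 1 gene not reported here. Others were chosen after their values were seen, and are marked so or stand only as members of a list, a pattern of calls or a set of promoters. Promoter sequences are those of RefSeq for GRCm38.p6, and deposited coordinates are of mm10.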

Additional observations from a re-analysis of the deposited data

Results flagged for a closer look

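For 12 genes the change from 2 to 6 h differed between SW016789 and thapsigargin in edgeR's test of that difference, which compares the 2 treatments directly. They are the 6 lowest and 6 highest called differences among genes averaging 1 CPM or more, on the log2 scale. Lower with SW016789 were Nr4a3 (-2.95), Atf3 (-2.43), Nr4a1 (-2.20), the MAP kinase phosphatase gene Dusp16 (-2.11), Fosb (-2.09) and Egr1 (-1.78). Each of these 6 was also called without any 1 of the 12 libraries compared.

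Higher with SW016789 were the secreted inhibitor gene Serpina3n (2.06), the KDEL receptor gene Kdelr3 (1.66), the inducible HSP70 genes Hspa1a (1.65) and Hspa1b (1.32), Stc1 (1.24) and Ttr (1.13). Stc1 and Ttr were called without any 1 library. Kdelr3 lost its call without thapsigargin 6 h replicate 1 or thapsigargin 2 h replicate 3 (1.40 to 1.49), Serpina3n in 9 of the 12 fits (1.73 to 2.09), Hspa1a in 10 (1.48 to 1.80) and Hspa1b in 9 (1.11 to 1.41). Hspa1a and Hspa1b are near-identical copies and their values are uncertain. Dusp16 changed by -0.69 ± 0.20 with SW016789 itself, which was called only with the replicate block (adjusted p = 0.072, and 0.026 with the block), and by 1.42 with thapsigargin.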

How the results depend on the processing

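The 287 calls of the change became 791 in DESeq2, 631 in limma, 484 with the experiment as a replicate block, 820 with that block and the intergenic percent, and 62 with the 12 libraries alone. For the 174 higher the values were 441, 373, 264, 425 and 38, and for those called lower 350.0, 258, 220.0, 395 and 24. The count of lower calls became 70.0 without libraries above 25% intergenic reads and 235 without experiment 1, a setting chosen after seeing the data. SW016789 against DMSO at 2 h gave 1153 calls in DESeq2, 1315 with block and intergenic percent, 265 with the libraries compared and 1089 without experiment 1, and at 6 h 2447, 2419, 903 and 952, with 4293 in limma. DMSO at 6 h against 2 h gave 73 in DESeq2, 1 with the block, 22 with block and intergenic percent, 4 without libraries above 25% and 263 without experiment 1. SW016789 at 6 h against 2 h gave 1367 in DESeq2, 6371 in limma, 1434 with block and intergenic percent, 406 with the libraries compared and 515 without experiment 1. SW016789 minus thapsigargin gave 1068 in DESeq2, 848 in limma, 699 with the block, 1197 with block and intergenic percent and 43 with the libraries compared. The remaining settings kept these counts within 1.5 times, apart from SW016789 minus thapsigargin without libraries above 25%, for which no count is given. The cause of these shifts was not tested.

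Without single libraries the ranges were 45 to 697 for the change, 19 to 264 higher, 21 to 433 lower, 266 to 1638 at 2 h, 572 to 1155 at 6 h, 0 to 645 for DMSO, 255 to 616 for SW016789 at 6 h against 2 h and 57 to 470 for SW016789 minus thapsigargin. At 2 h the lowest and highest were without SW016789 2 h replicate 3 and DMSO 2 h replicate 1. The difference of differences in intergenic share ranged from -4.57 to 5.61 points without single libraries, and for the intronic share it was -0.057 points. The replicate block gave Xbp1, Mafa and Dusp16 a called change and ended none of the 287 calls of the change. It also added calls in the gene lists, such as 1 lower call among the autophagy genes and 1 among the NRF2 genes. The median change of all genes tested was 0.03 with the block, 0.10 with DESeq2 size factors, -0.04 with block and intergenic percent and -0.20 without experiment 1.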

Other observations

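The genes whose effect fell between 2 and 6 h differed in gene length by the course they took, a feature that no step of the fit used. The 60 genes not called at 2 h and lowered at 6 h spanned a median of 93.8 kb from first to last annotated base, and 35 of them (58.3%) exceeded 50 kb. The 38 genes raised at 2 h and no longer called at 6 h had a median of 19.98 kb, with 11 above 50 kb. Among the genes that gained, the median was 28.5 kb for those first raised at 6 h and 18.2 kb for the 41 raised at both times, of which 32.8% and 9.76% exceeded 50 kb. All genes averaging 1 CPM or more had a median of 22.6 kb, with 27.5% above 50 kb. These are descriptions of lists chosen by their calls and carry no test.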
